A study of Mus musculus with 21 samples.

Results

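Matrix metalloproteinases (MMPs) and their inhibitors, the TIMPs, were described in mouse lung fibroblasts under 7 treatments. The genes were taken by symbol from a list of 9 and matched through their mouse Ensembl IDs, so they are 9 of the 52636 genes in the table: 6 MMP genes (Mmp2, Mmp3, Mmp9, Mmp10, Mmp13 and Mmp14) and 3 TIMP genes (Timp1, Timp2 and Timp3). All 9 passed the filter on low counts. The cells were fibroblasts carrying Ly6C and Sca-1 on their surface, kept in culture, and total RNA was sequenced from 21 libraries, 3 per group, with 19796379 to 29276382 counts each. The labels give every group the same kind of cell. The groups were DMSO, a solvent given alone; CHIR, named only so by the labels, a short name that commonly stands for an inhibitor of the kinase GSK3, which activates Wnt signalling; TGFb1, a cytokine that drives matrix production; TGFb1 + DMSO; TGFb1 + CHIR; TGFb1 + IL1b; and TGFb1 + TNF, the last pair with an inflammatory cytokine added. The CHIR group is compared with DMSO, and the IL1b and TNF groups with TGFb1 alone. The sources used here do not give strain, doses, times, or whether the 3 libraries of a group came from separate cultures or animals, so the p-values measure only the spread between these libraries.

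MMPs are zinc-dependent proteases, most of them secreted as inactive precursors, that cut collagens and other matrix proteins. TIMPs bind the active site of MMPs and block it, so matrix turnover depends on the amounts of both. Fibroblasts are a main source of several MMPs and TIMPs in the lung, and messenger RNA does not show how much enzyme is secreted, activated or inhibited.

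Mmp13, Mmp3 and Mmp10 lie next to each other in this set on chromosome 9 (GRCm38), all on the plus strand, within 237727 bases. Mmp13 spans chr9:7272514-7283331, Mmp3 chr9:7445822-7455975 and Mmp10 chr9:7502352-7510240. These 3 had the largest log2 fold changes of the 9 when CHIR was added to TGFb1, so the 250 bases before their RefSeq start sites (build GRCm38.p6, plus strand) are shown, at chr9:7272264-7272513 for Mmp13, chr9:7445572-7445821 for Mmp3 and chr9:7502092-7502341 for Mmp10. Capitals mark the AP-1 letters TGANTCA in all 3, the RUNX letters TGTGGTT (here on the minus strand) in Mmp13 and the SMAD letters CAGACA in Mmp10.
Mmp13: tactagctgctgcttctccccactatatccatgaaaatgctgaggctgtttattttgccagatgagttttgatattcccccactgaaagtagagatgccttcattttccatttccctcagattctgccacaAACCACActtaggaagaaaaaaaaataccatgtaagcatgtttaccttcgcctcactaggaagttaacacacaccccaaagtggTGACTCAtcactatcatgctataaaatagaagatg
Mmp3: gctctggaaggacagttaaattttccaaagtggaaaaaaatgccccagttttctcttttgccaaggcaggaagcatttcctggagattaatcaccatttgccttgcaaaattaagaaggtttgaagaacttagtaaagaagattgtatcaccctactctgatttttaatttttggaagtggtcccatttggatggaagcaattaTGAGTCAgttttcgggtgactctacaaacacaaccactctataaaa
Mmp10: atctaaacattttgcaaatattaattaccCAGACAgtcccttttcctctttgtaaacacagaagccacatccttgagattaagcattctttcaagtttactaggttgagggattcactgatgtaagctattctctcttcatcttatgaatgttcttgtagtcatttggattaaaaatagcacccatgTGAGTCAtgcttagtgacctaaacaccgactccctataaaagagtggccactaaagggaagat

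RefSeq promoters of 300 bases, from 250 before to 50 after the start, were matched by symbol for 7 of the 9 genes, with Mmp2 and Mmp9 not matched. Both strands were searched for 6 motifs chosen with the expression results known: AP-1 (TGANTCA), TCF/LEF (CTTTGAT), RUNX (TGTGGTT), ETS (CCGGAAG), SMAD (CAGACA) and NF-kB, given by name. Counted from the start site, the AP-1 letters began at base -35 in Mmp13, -46 in Mmp3 and -63 in Mmp10, and were in 7.79% of 32544 promoters. The RUNX letters began at base -119 in Mmp13 and were in 5.29% of promoters. The SMAD letters began at base -221 in Mmp10 and were in 20.9% of promoters. None of the marked motifs overlapped another. The letters of the 6 motifs were not in the windows of Mmp14, Timp1, Timp2 or Timp3, which says only that these letters are not there. The shares for the other motifs were 3.73% for TCF/LEF, 8.91% for ETS and 8.49% for NF-kB.

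The other 6 genes lie on other chromosomes. Mmp2 spans chr8:92827291-92853420, Mmp9 chr2:164940780-164955850, Mmp14 chr14:54431612-54445364, Timp1 chrX:20870166-20874735, Timp2 chr11:118301069-118355740 (minus strand) and Timp3 chr10:86300372-86349506.

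The labelled cell type was checked against marker genes. The 8 fibroblast markers, among them Col1a1 and Pdgfra, summed to between 18716 and 58332 CPM in every library. CPM are counts scaled to the library size and TMM factor. The lowest of these sums were in TGFb1 + TNF and the highest in TGFb1 + CHIR, at 52218 to 58332 CPM. The list includes Ly6a and Ly6c1, which were lowest in TGFb1 + CHIR, so the sum does not show how each marker moved. The 11 immune markers summed to 0.989 to 3.002 CPM, with Ptprc, Adgre1, S100a9 and Cd3e at 0 in every library. The 6 epithelial markers summed to at most 0.538 CPM. The 5 endothelial markers summed to 3.77 to 22.4 CPM, highest in TGFb1 + CHIR, mainly through Kdr, with Cldn5 at 0 in every library. The 4 mesothelial markers summed to 8.61 to 29.2 CPM, nearly all Wt1. Ly6c1, one of the genes for Ly6C, was at 0.703 ± 0.128 CPM (SD, n = 3) in TGFb1 + CHIR and at 49.8 ± 1.77 in DMSO. Ly6a, the gene for Sca-1, was at 7.83 ± 0.949 CPM in TGFb1 + CHIR, at 66.6 ± 4.56 in TGFb1 + DMSO and at 142 ± 5.52 in DMSO, so both genes of the labelled surface markers were lowest in TGFb1 + CHIR. Their part in the results of that group was not tested.

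The collagenase Mmp13, which cuts fibrillar collagen, was rare in the solvent and abundant only where TGFb1 and CHIR were combined. It was at 5.85, 6.38 and 6.49 CPM in the DMSO libraries and at 26.8, 24.1 and 26.7 CPM with CHIR. With TGFb1 + DMSO it was at 96.1, 87.0 and 84.1 CPM. With TGFb1 + CHIR it reached 2614, 2347 and 2749 CPM. Every TGFb1 + CHIR library was above every other library, and the 7 group means spanned 412-fold, the widest span of the 9 genes. Mmp13 was at 51.1, 45.6 and 40.4 CPM in TGFb1, at 21.3, 16.3 and 18.6 CPM in TGFb1 + IL1b, and at 55.4, 44.1 and 40.5 CPM in TGFb1 + TNF. The TNF libraries overlapped those of TGFb1, and the IL1b libraries lay below both. These levels are for bulk RNA, in which fewer cells of a type and less RNA per cell cannot be told apart.

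The stromelysins Mmp3 and Mmp10 cut proteoglycans and other matrix proteins and can activate other MMPs. Mmp3 was abundant in the solvent, at 687, 579 and 582 CPM, and higher with CHIR, at 1419, 1359 and 1337 CPM. It was at 104, 85.4 and 86.0 CPM with TGFb1 + DMSO and at 742, 709.7 and 767 CPM with TGFb1 + CHIR, a level above all 3 DMSO libraries. Among the groups with TGFb1 but no CHIR it was lowest with TNF, at 19.6, 13.9 and 17.4 CPM, between 46.0 and 34.8 CPM with IL1b, and between 77.2 and 61.7 CPM with TGFb1 alone. No 2 neighbouring groups in the order of Mmp3 levels overlapped.

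Mmp10 was rare in most groups, with 72 to 127 raw counts per library in DMSO and 87 to 110 in TGFb1 + IL1b, so its errors were wide. It was at 4.32, 2.42 and 3.16 CPM in DMSO, at 5.44, 5.51 and 3.99 CPM with CHIR, and at 11.1, 8.32 and 7.65 CPM with TGFb1 + DMSO. With TGFb1 + CHIR it was at 42.2, 46.9 and 58.3 CPM, above every other library. The CHIR and DMSO libraries overlapped.

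The gelatinases cut denatured collagen and basement membrane collagen. Mmp2 was the most abundant MMP per kb of exon in every group, and its group means spanned 5.12-fold. It was at 1892, 1719 and 1670.2 CPM in DMSO, at 4187, 4005 and 4200.1 CPM with CHIR and at 816, 789.7 and 814 CPM with TGFb1 + TNF. The CHIR and TGFb1 + CHIR libraries were the highest and the TNF libraries the lowest, with no overlap with any other group. Mmp9 was at 6.67, 7.15 and 7.22 CPM in DMSO, at 8.57, 7.10 and 9.48 CPM in TGFb1, and at 409, 361 and 379 CPM in TGFb1 + TNF. It was at 31.2, 25.1 and 27.1 CPM with TGFb1 + IL1b and at 2.37, 2.42 and 1.94 CPM with TGFb1 + CHIR, where it had only 38 to 64 raw counts per library. The group means spanned 171-fold. Mmp9 is also made by neutrophils and macrophages. The immune markers summed to 1.74 to 2.28 CPM in TGFb1 + TNF and to 1.04 to 2.01 CPM in TGFb1. The part of immune cells in the Mmp9 levels was not tested.

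Mmp14 encodes a membrane-anchored MMP that cuts collagen at the cell surface and activates the MMP2 precursor in a complex with TIMP2. It was at 1145, 1139 and 1109 CPM in DMSO, at 1559, 1492 and 1627 CPM with CHIR, and at 1678, 1672 and 1761 CPM with TGFb1 + CHIR. With IL1b it was at 583, 607 and 599 CPM and with TNF at 346, 334 and 346 CPM. The order over the 7 groups held no overlap between neighbours.

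The 3 inhibitors took different courses. Timp1, a secreted inhibitor that several cytokines induce, was at 80.7, 74.4 and 72.4 CPM in DMSO and at 458, 489 and 459 CPM with TGFb1 + DMSO. With IL1b it was at 1121, 1150.1 and 1089.5 CPM and with TNF at 1427, 1312 and 1288 CPM, above every library of the other groups. Timp2, the partner in MMP2 activation, ran the other way with TGFb1 and with TNF. It was at 2073, 2125 and 2142 CPM in DMSO and at 852, 792 and 801 CPM with TGFb1 + DMSO. With TNF it was at 326, 326.5 and 340.1 CPM. With CHIR alone both genes were higher than in DMSO, Timp1 at 115.1, 113.6 and 118.4 CPM and Timp2 at 2535, 2557 and 2596 CPM. With TGFb1 + CHIR Timp2 was at 1696, 1632 and 1818 CPM.

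Timp3, which binds to the matrix and also blocks ADAM proteases, was at 425, 477 and 469 CPM in DMSO and at 265, 285 and 266 CPM with CHIR. It was at 2123, 2504 and 2403 CPM with TGFb1 + DMSO and at 2674, 2552 and 2344 CPM with TGFb1 + CHIR, groups that overlapped. The libraries with IL1b, at 1602, 1829.7 and 1764 CPM, and with TNF, at 1386, 1567 and 1477 CPM, were below all those with TGFb1 alone, the lowest of which was at 2226 CPM.

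Other genes lie over some of the TIMP genes. Syn1, on the opposite strand, spans Timp1 but shares 0 exon bases with it, and its group means were 6.96 CPM in DMSO, 62.4 CPM in TGFb1 + DMSO, 147.5 CPM in TGFb1 + CHIR and 48.4 CPM in TGFb1 + TNF. Syn3, also on the opposite strand, shares 1733 exon bases with Timp3 and was at most at 0.527 CPM in any library. Cep295nl, on the same strand as Timp2, overlaps it but shares 0 exon bases with it, and was at most at 8.505 CPM in any library. The kit keeps strand, but no source used here gives the strand setting of the counting, and the part of Syn1 in the Timp1 counts was not tested.

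**Figure D1:**
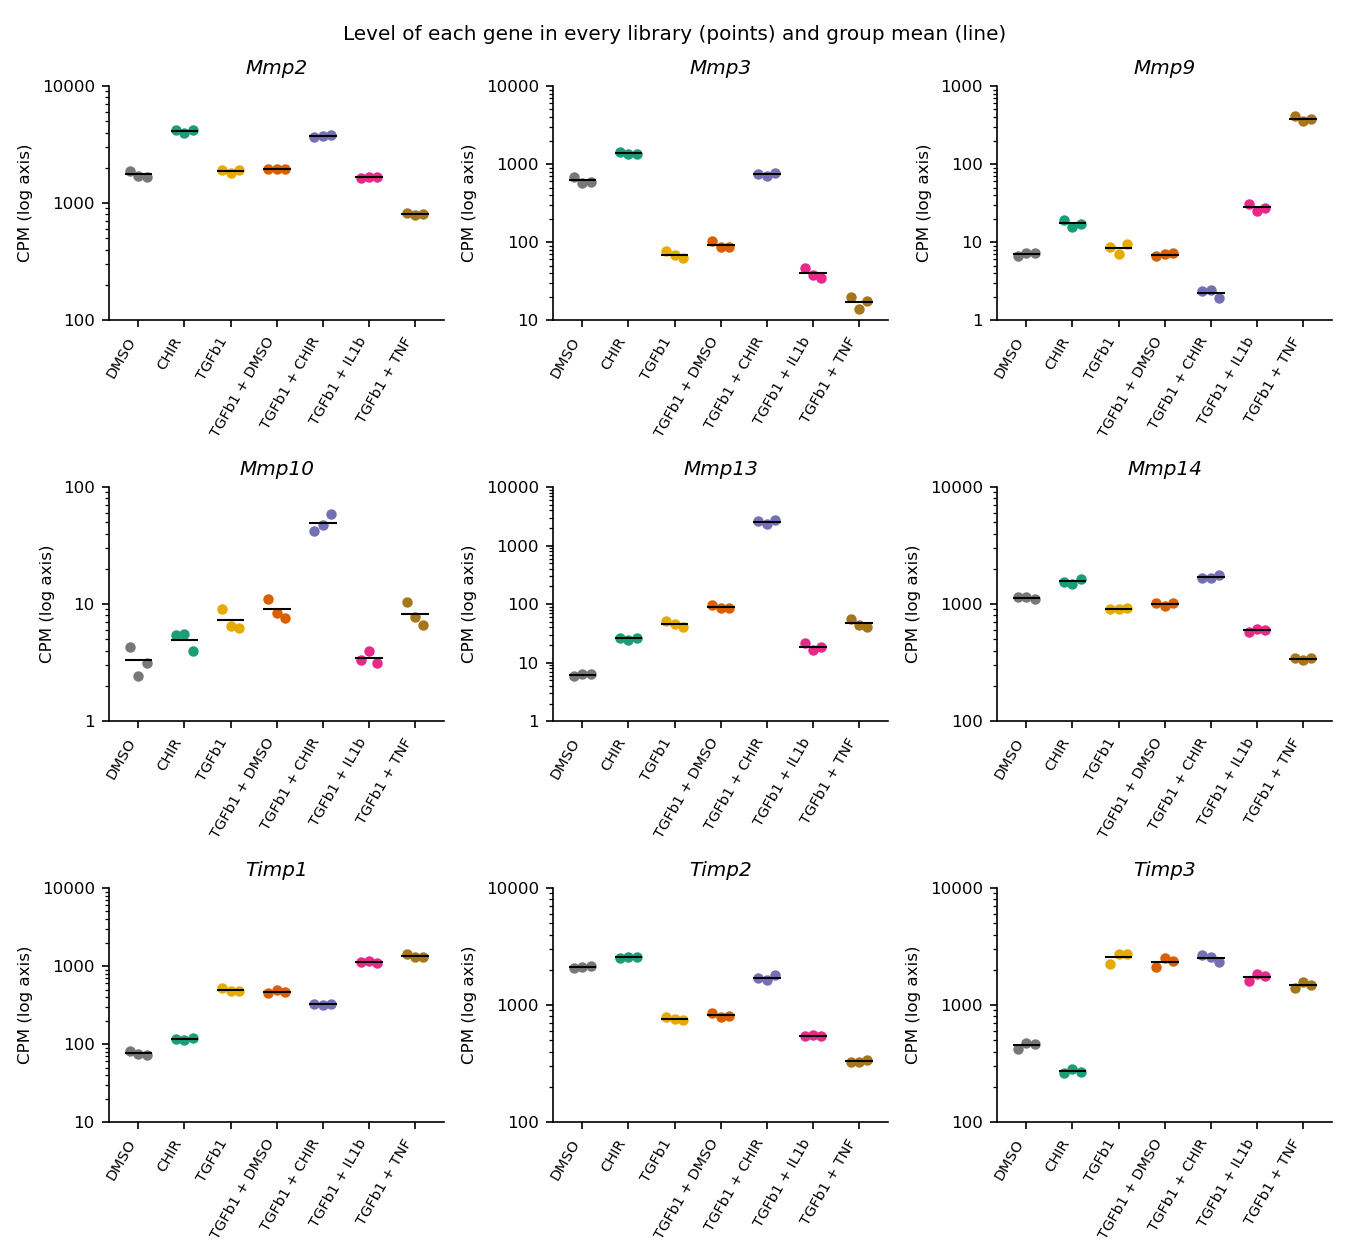
Level of each of the 9 genes in CPM (log axis) in every library (points) of the 7 groups, with the group mean as a line. Mmp13 and Mmp10 stand highest in TGFb1 + CHIR, Mmp9 and Timp1 in TGFb1 + TNF.

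Adding TGFb1 in the solvent changed 8 of the 9 genes, 5 higher and 3 lower, where 62.0% of the 16197 genes tested were called (edgeR quasi-likelihood test, Benjamini-Hochberg adjusted p under 0.05 over all genes tested). Mmp13 rose 14.3-fold, with a log2 fold change of 3.84 ± 0.15 (SE, adjusted p = 9.46e-13), and Timp1 rose 6.18-fold (2.63 ± 0.05, adjusted p = 2.85e-43). Timp3 rose 5.13-fold (log2 2.36 ± 0.09) and Mmp10 2.72-fold (log2 1.44 ± 0.22), whereas Mmp3 fell by 2.75 on the log2 scale and Timp2 by 1.37. Mmp2 (log2 0.15) and Mmp14 (log2 -0.17) passed the test with small differences. Mmp9 did not pass (log2 -0.02 ± 0.11, adjusted p = 0.906), and with TGFb1 alone in place of TGFb1 + DMSO its log2 value was 0.24 and passed (adjusted p = 0.0441). The log2 rise of Mmp13 was 2.88 with that other control. The median log2 fold change was 0.15 over the 9 genes and -0.02 over all genes tested.

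CHIR alone changed all 9 genes, 8 higher and 1 lower, where 44.8% of all genes were called. Mmp13 rose 4.15-fold (log2 2.05 ± 0.16, adjusted p = 3.25e-08), Mmp9 rose 2.48-fold, Mmp2 rose 2.35-fold and Mmp3 rose 2.23-fold. Mmp14 and Timp1 rose 1.38-fold and 1.52-fold, and Timp2 rose 1.21-fold. Timp3 fell by 0.75 on the log2 scale (SE 0.09). Mmp10 (log2 0.61 ± 0.24, adjusted p = 0.0438) did not pass with limma voom, or without any of 4 of the 6 libraries. The DMSO libraries also had high levels of immediate-early genes: Fos was at 1517 ± 112 CPM (SD, n = 3) in DMSO and 7.45 ± 0.842 in CHIR. The part of this in the differences from DMSO was not tested.

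CHIR added to TGFb1 changed 8 of 9 genes, 6 higher and 2 lower, where 43.3% of all genes were called. The 3 genes of chromosome 9 rose most: Mmp13 28.9-fold (log2 4.85 ± 0.12, adjusted p = 5.46e-15), Mmp3 8.06-fold (log2 3.01 ± 0.12) and Mmp10 5.46-fold (log2 2.45 ± 0.18). Timp2 rose 2.10-fold, Mmp2 rose 1.91-fold and Mmp14 rose 1.69-fold. Mmp9 fell by 1.62 on the log2 scale (SE 0.14, adjusted p = 1.34e-13) and Timp1 fell by 0.52. Timp3 did not pass (log2 0.11 ± 0.09, adjusted p = 0.356). Against TGFb1 without the solvent, the log2 rise of Mmp13 was 5.81. Endothelial markers also moved with this group: they summed to 19.7 to 22.4 CPM in TGFb1 + CHIR and to 4.60 to 7.06 CPM in TGFb1 + DMSO, mainly through Kdr, and their part was not tested.

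TGFb1 in CHIR-treated cells changed all 9 genes, 5 higher and 4 lower, where 66.2% of all genes were called. Mmp13 rose 99.4-fold (log2 6.64 ± 0.13, adjusted p = 1.03e-16), Mmp10 rose 9.75-fold, Timp3 rose 9.27-fold and Timp1 rose 2.82-fold. Mmp9 fell by 2.94 on the log2 scale, Mmp3 by 0.89 and Timp2 by 0.58. Mmp2 (log2 -0.14) and Mmp14 (log2 0.13) passed with small differences. This comparison shares its TGFb1 + CHIR libraries with the one before it.

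The CHIR effect differed with TGFb1 present for all 9 genes, where 41.2% of all genes were called for this difference between differences. Mmp13 had a log2 difference of 2.80 ± 0.21, Mmp3 of 1.85 ± 0.16 and Mmp10 of 1.84 ± 0.30. Mmp9 had one of -2.93 ± 0.17 (adjusted p = 1.1e-19) and Timp1 one of -1.13 ± 0.06: both were higher with CHIR alone and lower with CHIR on top of TGFb1. Timp3 went from lower with CHIR alone to no call with TGFb1 (log2 difference 0.85 ± 0.12), and Timp2, Mmp14 and Mmp2 differed by 0.80, 0.30 and -0.30. The DMSO libraries enter this difference.

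**Figure D2:**
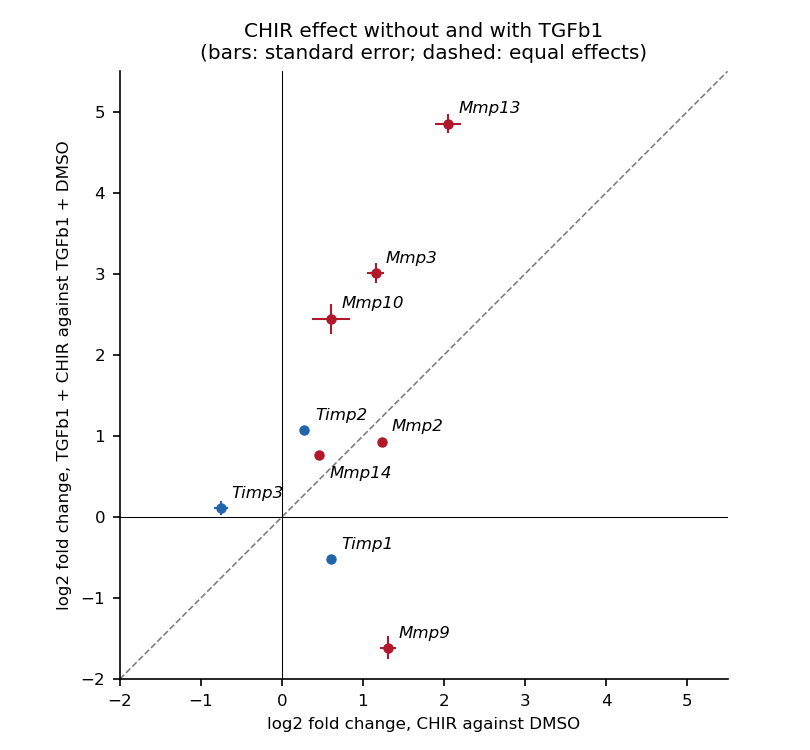
log2 fold change of each gene for TGFb1 + CHIR against TGFb1 + DMSO (vertical) and for CHIR against DMSO (horizontal), with standard errors; the dashed line marks equal effects, red marks MMP and blue TIMP genes. Mmp13, Mmp3 and Mmp10 lie above the line, at 4.85, 3.01 and 2.45, and Mmp9 and Timp1 change side.

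IL1b added to TGFb1 changed all 9 genes, 2 higher and 7 lower, where 34.6% of all genes were called. Mmp9 rose 3.35-fold (log2 1.75 ± 0.09, adjusted p = 1.7e-21) and Timp1 rose 2.27-fold (log2 1.18 ± 0.04, adjusted p = 3.9e-28). Mmp13 fell by 1.29 on the log2 scale (SE 0.13), Mmp10 by 1.07, Mmp3 by 0.81, Mmp14 by 0.61, Timp3 by 0.56, Timp2 by 0.48 and Mmp2 by 0.17. Against TGFb1 + DMSO the falls of the 3 chromosome 9 genes were larger: Mmp13 fell by 2.25, Mmp10 by 1.37 and Mmp3 by 1.21.

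TNF added to TGFb1 changed 7 of the 9 genes, 2 higher and 5 lower, where 56.6% of all genes were called. Mmp9 rose 46.2-fold (log2 5.53 ± 0.08, adjusted p = 1.69e-43) and Timp1 rose 2.72-fold (log2 1.44 ± 0.04). Mmp3 fell by 2.04 on the log2 scale, Mmp14 by 1.41, Mmp2 by 1.22, Timp2 by 1.21 and Timp3 by 0.79. Mmp10 (log2 0.19 ± 0.20, adjusted p = 0.463) and Mmp13 (log2 0.03 ± 0.12, adjusted p = 0.879) did not pass. The Mmp13 value depended on the control: against TGFb1 + DMSO, in which it was 1.94-fold higher than in TGFb1, its log2 fold change with TNF was -0.93 and passed (adjusted p = 2.76e-06). The fibroblast markers summed to 18716 to 19713 CPM with TNF and to 46341 to 48896 CPM with TGFb1, and their part in the lower levels was not tested. The endothelial markers summed to 12.1 to 12.8 CPM with TNF and to 4.19 to 5.39 CPM with TGFb1. Cdh5, an endothelial cadherin, was at 4.54 ± 0.212 CPM with TNF and at 0.265 ± 0.172 CPM with TGFb1, and the part of these markers was not tested.

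IL1b and TNF share their TGFb1 control, so the 2 groups were compared directly. All 9 genes differed, 5 higher and 4 lower with IL1b, where 47.6% of all genes were called. Mmp9 was lower with IL1b than with TNF by 3.78 on the log2 scale (a 13.8-fold difference, adjusted p = 5.48e-39), Mmp13 by 1.32, Mmp10 by 1.26 and Timp1 by 0.26. Mmp3, Mmp2, Mmp14 and Timp2 were higher with IL1b, 2.34-fold, 2.07-fold, 1.75-fold and 1.66-fold. The 1.17-fold difference in Timp3 (adjusted p = 0.0389) did not pass with RLE factors, without the low-count filter, or without any of 4 of the 6 libraries.

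The solvent itself added to TGFb1 changed 2 genes, both higher, where 6.13% of all genes were called. Mmp13 rose 1.94-fold (log2 0.96 ± 0.11, adjusted p = 8.16e-05) and Mmp14 1.11-fold (adjusted p = 0.00891). Without the third TGFb1 + DMSO library, Mmp14 did not pass. Mmp3 (log2 0.40, adjusted p = 0.0662) passed with DESeq2 and with only the 2 groups in the fit, and Mmp9 (log2 -0.26, adjusted p = 0.155) passed without the second TGFb1 library.

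Over the 9 genes the median log2 fold change was 0.61 for CHIR, 0.93 for CHIR added to TGFb1, -0.56 for IL1b and -0.79 for TNF. Over all genes tested the medians of these 4 comparisons ran from -0.0141 to 0.0024.

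**Figure D3:**
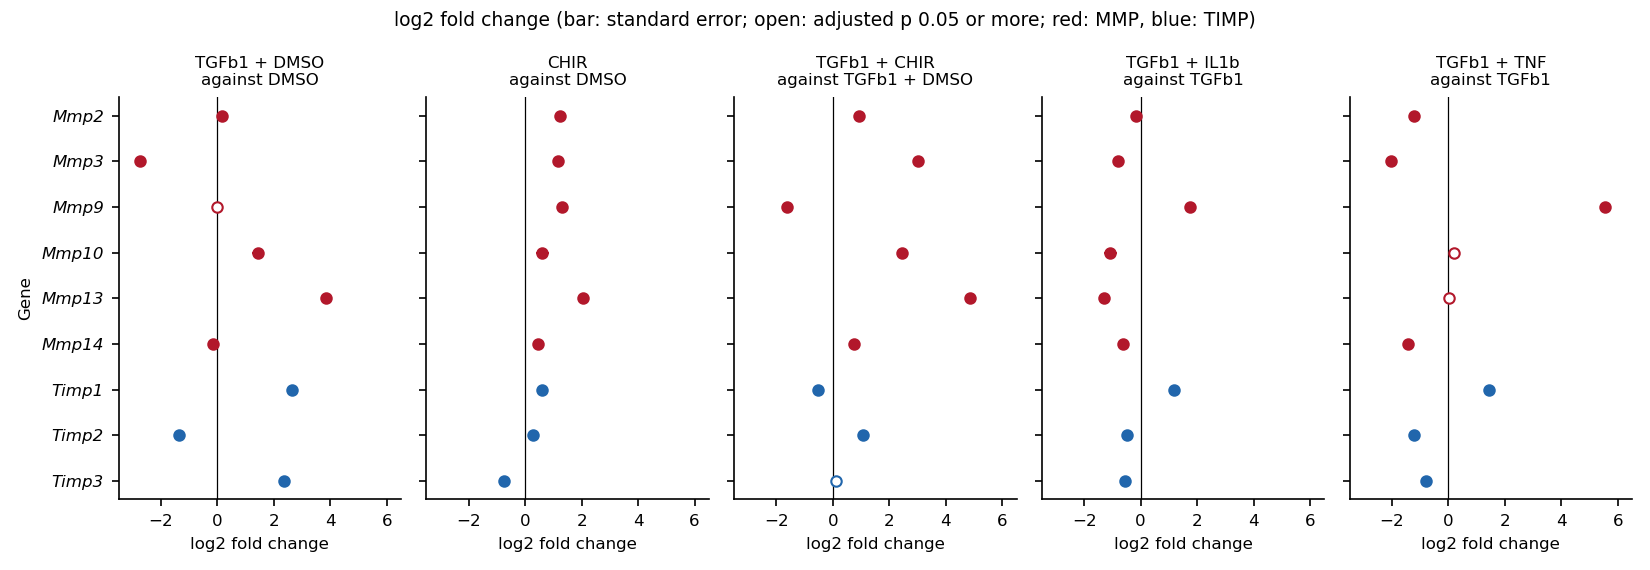
log2 fold change of each gene in 5 comparisons, with standard errors as bars; filled points passed the threshold, open points did not, red marks MMP and blue TIMP genes. Mmp9 stands out with TNF at 5.53 and Mmp13 with TGFb1 + CHIR at 4.85.

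Summed over the genes per kb of exon, proteases outweighed inhibitors in DMSO and in both CHIR groups, and inhibitors outweighed proteases in the other groups with TGFb1. The ratio of the MMP sum to the TIMP sum was 1.69, 1.495 and 1.47 in the DMSO libraries and 2.84, 2.70 and 2.74 with CHIR. It was 0.862, 0.784 and 0.820 with TGFb1 + DMSO and 2.46, 2.45 and 2.59 with TGFb1 + CHIR. TGFb1 gave 0.736, 0.707 and 0.729, TGFb1 + IL1b 0.395, 0.383 and 0.400, and TGFb1 + TNF 0.244, 0.240 and 0.253. The libraries of the groups compared did not overlap in any of 5 comparisons. Which side of 1 a group lay on depended on the definition. Without Timp3 the mean ratio was 1.03 in TGFb1 and 1.14 in TGFb1 + DMSO. With only Mmp3, Mmp10 and Mmp13 as the proteases it was 0.507 in DMSO and 0.943 with CHIR. With each gene given the same weight it was below 1 in every group, at 0.209 in DMSO and 0.418 with CHIR.

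On the log2 scale the balance differed by -0.91 for TGFb1 + DMSO against DMSO, by 0.83 for CHIR against DMSO and by 1.61 for TGFb1 + CHIR against TGFb1 + DMSO. It differed by -0.88 for IL1b and by -1.56 for TNF, both against TGFb1. No test was run on the balance, which is a score over the genes. The direction with TNF depended on how genes were weighed: with each gene given the same weight it was 0.32. With raw CPM in place of CPM per kb, the IL1b difference was -0.15.

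**Figure D4:**
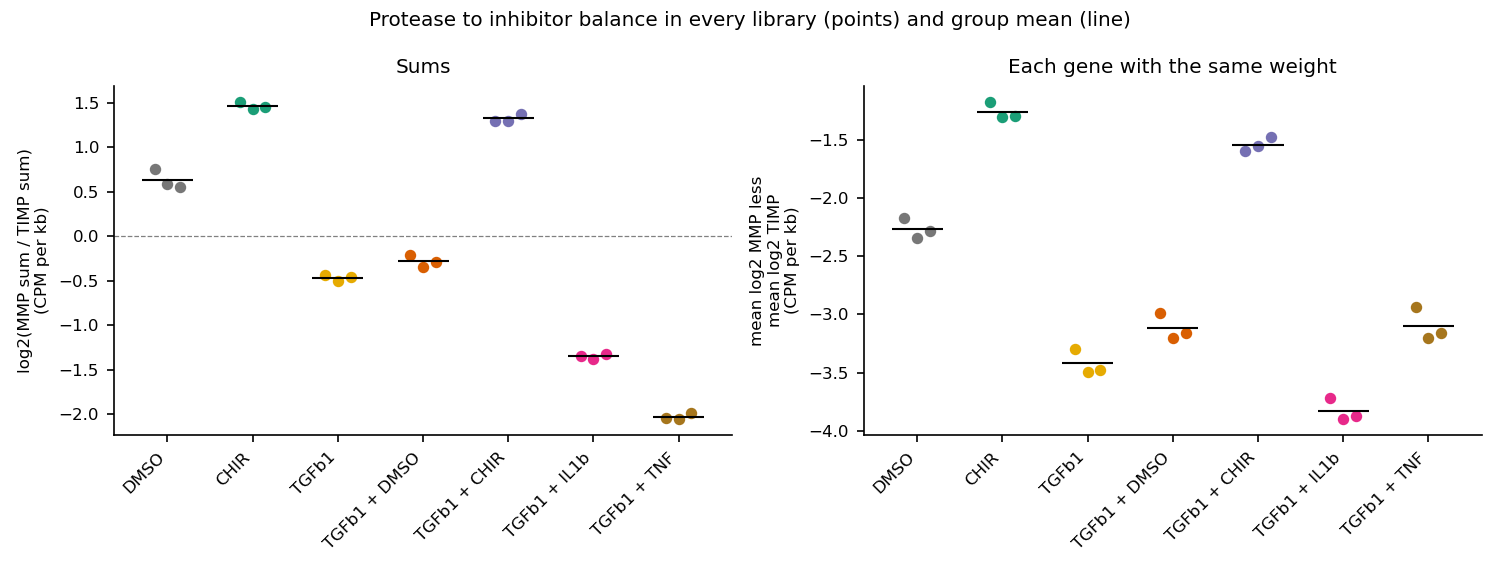
Protease to inhibitor balance in every library (points) and as group means (lines): left, log2 of the MMP sum over the TIMP sum in CPM per kb, dashed at equal sums; right, the mean log2 level of the 6 MMP genes less that of the 3 TIMP genes. TNF differs from TGFb1 by -1.56 in the left panel and by 0.32 in the right.

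The make-up of the sums shifted between groups. The MMP sum was 1060.0 ± 70.8 CPM per kb (SD, n = 3) in DMSO, with Mmp2 at 49.3% of it, Mmp3 at 32.2% and Mmp14 at 17.9%. With TGFb1 + CHIR it was 2795 ± 117 CPM per kb, of which Mmp2 made 39.7%, Mmp13 34.4% and Mmp3 14.7%. With TGFb1 + TNF it was 437 ± 16.3 CPM per kb, of which Mmp2 made 54.8% and Mmp9 24.8%. Mmp9 was at most 1.24% of the sum in any other group.

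The TIMP sum was 684 ± 7.65 CPM per kb in DMSO, with Timp2 at 79.3%. In TGFb1 + DMSO it was 1025 ± 34.0 CPM per kb, with Timp1 at 51.5%, Timp3 at 28.0% and Timp2 at 20.4%. In TGFb1 + TNF it was 1778 ± 74.2 CPM per kb, with Timp1 at 85.0%. The leading inhibitor per kb was therefore Timp2 in DMSO, CHIR and TGFb1 + CHIR, and Timp1 in the other 4 groups.

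**Figure D5:**
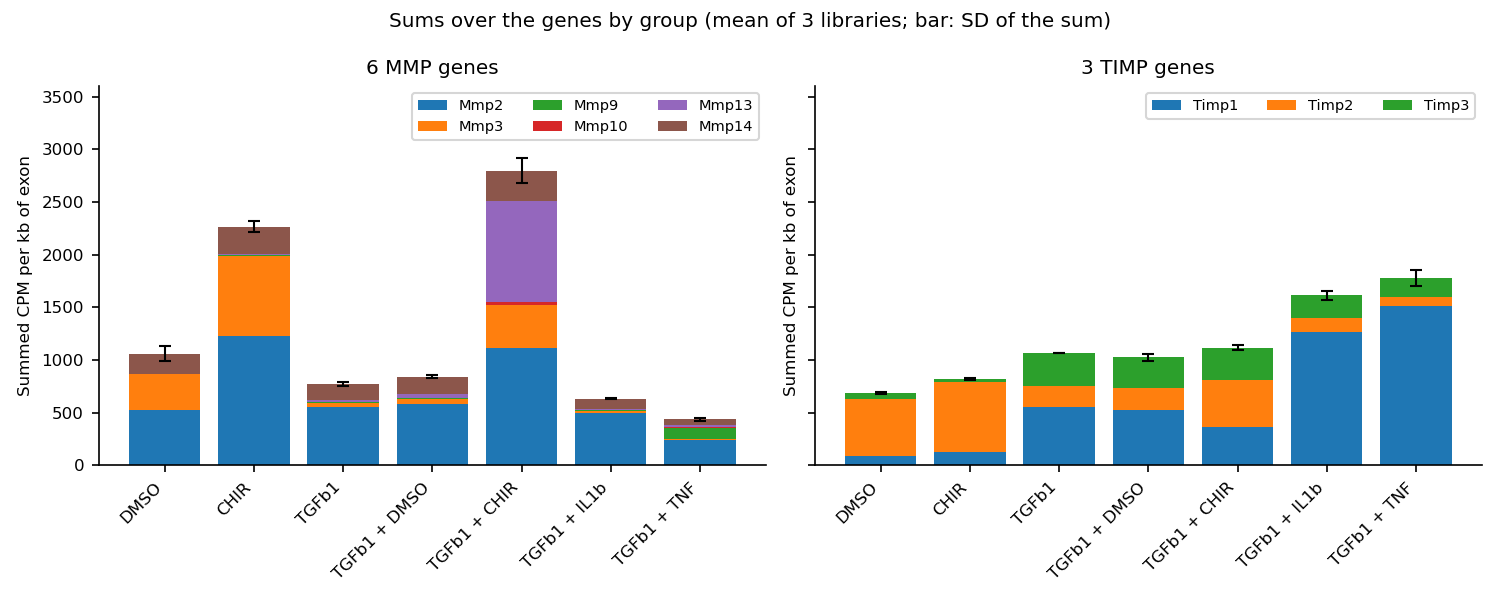
Sum of CPM per kb of exon over the 6 MMP genes (left) and the 3 TIMP genes (right) in each group, stacked by gene, as the mean of 3 libraries with the SD of the sum as a bar. Mmp13 makes 34.4% of the MMP sum in TGFb1 + CHIR, and Timp1 85.0% of the TIMP sum in TGFb1 + TNF.

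Ratios of pairs that act together or are often set side by side moved less evenly. The ratio of Mmp2 to Timp2 per kb was 0.964 ± 0.0808 in DMSO, 1.86 ± 0.0499 with CHIR, 2.78 ± 0.0992 with TGFb1 + DMSO and 2.82 ± 0.0672 with TNF. The ratio of Mmp9 to Timp1 was 0.0716 ± 0.00244 with TNF and 0.00427 ± 0.000643 with TGFb1. It was 0.0233 ± 0.00226 in DMSO and 0.0377 ± 0.00406 with CHIR. The ratio of Mmp13 to Timp1 was 2.62 ± 0.176 with TGFb1 + CHIR and at most 0.0743 in any other group mean.

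Of 17 other MMP genes, 10 were tested. TGFb1 in the solvent changed 8 of them, 1 higher and 7 lower, where 62.0% of all genes were called. The membrane-bound Mmp23 fell by 0.73 on the log2 scale and Mmp19 by 0.73. Some less abundant MMP genes moved more. Mmp15 was at 13.6 CPM in DMSO and 3.28 CPM in TGFb1 + DMSO, and Mmp27 at 5.22 and 1.25 CPM. Mmp12 went the other way, from 0.0563 to 2.33 CPM. CHIR added to TGFb1 changed 6, 3 higher and 3 lower, where 43.3% were called: Mmp19 rose 1.76-fold, Mmp11 rose 1.71-fold, Mmp17 fell by 1.28 and Mmp23 by 0.73. TNF changed 6, all lower, where 56.6% were called: Mmp23 fell by 1.35 and Mmp11 by 0.83. IL1b changed 4, 1 higher and 3 lower, where 34.6% were called, with Mmp28 higher 1.45-fold.

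Of 22 partners in activation, inhibition and clearance, 19 were tested. TGFb1 in the solvent changed 17, 8 higher and 9 lower, where 62.0% of all genes were called. Reck, a membrane-anchored MMP inhibitor, fell by 1.66 on the log2 scale. Pcsk6, a proprotein convertase, fell by 3.25 on the log2 scale. CHIR added to TGFb1 changed 15, 7 higher and 8 lower, where 43.3% were called: Plat, a plasminogen activator, rose 2.08-fold and Ctsk, a collagen-cutting cathepsin, 2.41-fold. TNF changed 15, 3 higher and 12 lower, where 56.6% were called, with Thbs1 and Thbs2, which bind MMP2 for clearance, lower by 2.01 and 1.25. IL1b changed 13, 5 higher and 8 lower, where 34.6% were called, with Thbs1 lower by 1.29 and Plau, another plasminogen activator, by 1.04.

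Of 19 AP-1, ETS, RUNX and NF-kB factors, all 19 were tested. CHIR alone changed 16, 4 higher and 12 lower, where 44.8% of all genes were called, with log2 fold changes of -7.66 for Fos, -7.91 for Fosb, -4.92 for Junb and -2.80 for Jun. Mmp13 and Mmp3 rose in the same comparison. TGFb1 in CHIR-treated cells left 13 factors higher and 4 lower, where 66.2% were called. Log2 fold changes were 4.38 for Fos, 3.30 for Fosb, 2.91 for Runx1 and -3.21 for Etv1, and there Mmp13 rose and Mmp3 fell. The CHIR effect was higher with TGFb1 than without for 11 factors and lower for 3, where 41.2% were called. The log2 difference was 7.82 for Fos and 7.94 for Fosb. The part of these factors in the MMP levels was not tested. TGFb1 in the solvent changed 16, 5 higher and 11 lower, where 62.0% were called, with Runx1 higher 4.64-fold and Fos lower by 3.44. CHIR added to TGFb1 changed 13, 8 higher and 5 lower, where 43.3% were called, with Ets2 and Cebpb higher 2.16-fold and 2.17-fold. TNF changed 18, 12 higher and 6 lower, where 56.6% were called, with the NF-kB subunit Relb higher 3.63-fold and Fos lower by 2.38. IL1b changed 13, 11 higher and 2 lower, where 34.6% were called, with Cebpb higher 3.31-fold and Relb higher 2.72-fold.

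The genes with the most similar pattern were sought over the 7 group means of log2 CPM, each centred and divided by its SD, among 9957 genes. This scaling removes the size of a change. Mmp10 and Mmp13 were each other's nearest gene, with a root mean square difference of 0.154 SD. Wnt2, a Wnt ligand, was among the nearest 3 of both. Wnt2 was at 74.2 CPM in TGFb1 + CHIR and at most at 5.97 CPM in any other group mean. Genes were searched by their mean level over all libraries, that group included, so the likeness of Wnt2 is no separate support. Tcf7, a Wnt pathway transcription factor, was near Mmp13 at 0.190 SD, and it was at 45.9 CPM in TGFb1 + CHIR and at 8.53 CPM in TGFb1 + DMSO. The nearest gene to Mmp3 was Plbd2 at 0.064, to Mmp9 Dcaf1 at 0.100, to Timp1 Abcb1a at 0.079, to Timp2 Lzts2 at 0.056 and to Timp3 Relt at 0.061. Mmp2 was nearest to Serpinf1 (0.170) and Mmp14 to Agap3 (0.121). Dcaf1 ran only from 65.6 to 111 CPM over the groups.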

How the data were processed

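Gene counts were analysed in 21 libraries of mouse Ly6C+/Sca-1+ fibroblasts in 7 groups of 3, taken from the labels. The authors deposited raw counts per gene, 19796379 to 29276382 per library; each of the 21 single-library tables was checked and held the same values as its column of the joint table. Per the submitters' processing notes the builds are GRCh38 and GRCm38, with no role named; no source used here gives the aligner, counter or strand setting. Per the labels' protocols, libraries came from a stranded total RNA kit. Symbols, positions and exon lengths are from GENCODE M21 (GRCm38), which holds 52489 of the 52636 gene IDs.

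The fit was edgeR 4.0.16 (R 4.3.3): filterByExpr, TMM factors, a coefficient per group over all 21 libraries, robust quasi-likelihood F-tests, and Benjamini-Hochberg adjustment over 16197 genes at 0.05. It was tested on simulated data, in which changed genes with low counts were recovered less often than well-covered ones; the criterion for this test was restricted to well-covered genes after a first one, over all changed genes, was missed in some comparisons. CPM are scaled by TMM factors, and levels between genes are compared per kb of exon. The balance is log2 of the summed MMP over summed TIMP CPM per kb, with no test. The genes and gene lists were chosen with earlier results of these data known, and the motifs after seeing these results. Besides the 9 genes, each comparison names up to 4 genes per list with the largest change past the threshold and a mean of at least 2 log2 CPM, and the 3 genes nearest in pattern to each member; of these, a selection is printed, and some genes that the rule names are left out. Alternatives were DESeq2 1.42.0, limma 3.58.1 voom, RLE factors, no filter or a filter of 1 CPM in 3 libraries, a fit of only the groups compared, a fit without mitochondrial and rRNA genes, the other TGFb1 control, each library left out in turn, and 4 other definitions of the balance. Replicate numbers are names given in accession order and were not used to pair libraries.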

Additional observations from a re-analysis of the deposited data

Results flagged for a closer look

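The CHIR effect differed between cells with and without TGFb1 for each of the 9 genes, by the interaction term in edgeR (adjusted over all genes tested). The log2 difference, with TGFb1 less without, was 2.80 for Mmp13, 1.85 for Mmp3, 1.84 for Mmp10, 0.30 for Mmp14, 0.85 for Timp3 and 0.80 for Timp2. It was -2.93 for Mmp9, -1.13 for Timp1 and -0.30 for Mmp2. The same call was made for 41.2% of all genes tested, and the DMSO libraries, in which Fos was at 1517 ± 112 CPM (SD, n = 3), are part of every one of these differences.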

How the results depend on the processing

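Of 1143 alternative values for the 81 log2 fold changes of the 9 genes, 1117 kept their direction and side of the threshold, 12 lost the call, 3 gained it and 11 changed sign; of 1346 for 96 other named results, 1337 kept them and 9 lost the call. The sign changes that passed the test came with the other TGFb1 control: 0.24 for Mmp9 (TGFb1 against DMSO) and -0.93 for Mmp13 (TNF). The other 9 passed the test on neither side. With that control they were -0.0162 for Timp3 (CHIR added to TGFb1) and -0.11 for Mmp10 (TNF), and without the filter 0.0176 for Mmp9 (TGFb1 + DMSO). Leaving out each library gave -0.0522 to 0.0204 for Mmp9 (TGFb1 + DMSO), -0.0125 to 0.38 for Mmp10 (TNF) and -0.12 to 0.12 for Mmp13 (TNF). In the solvent comparison, leaving out each library gave 646 to 884 genes called, from 993, and 1 to 3 members, from 2; the lowest counts came without the first TGFb1 and the third TGFb1 + DMSO library.

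The balance difference moved with its definition. With raw CPM it was -0.61 for TGFb1 + DMSO, 1.14 for TGFb1 + CHIR, -0.15 for IL1b and -0.59 for TNF. With each gene given the same weight it was 1.004 for CHIR alone, -0.41 for IL1b and 0.32, reversed, for TNF. Without Timp3 it was -0.56 for TGFb1 + DMSO, -1.18 for IL1b and -1.91 for TNF. With Mmp3, Mmp10 and Mmp13 as the proteases it was -2.53, 3.84, -1.55 and -1.66 for TGFb1 + DMSO, TGFb1 + CHIR, IL1b and TNF. The causes of these changes were not tested. No paired analysis was run, because the labels give the groups no shared replicate numbers, so the calls take no account of any pairing. In accession order, which pairs nothing by itself, the first library was the lowest of its group for Timp3 and the highest for Mmp3 in 6 of 7 groups; whether libraries share a batch across groups was not tested. Low counts limit Mmp10, and Mmp9 in TGFb1 + CHIR.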
